A study of Mus musculus with 6 samples.

Results

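The autophagy and lysosome genes described here are 42 mouse genes, chosen by name and ordered by what their products do: 3 transcription factors, 25 genes that build the autophagosome, 4 genes of the lysosome membrane, 8 lysosomal enzymes and 2 proteins of the lysosome lumen that are not enzymes. They were read from expression arrays through the RefSeq accession of each spot, which gave 56 of 55681 probes. Of the 42 genes, 41 were tested, among 12471 genes tested in all. Atg4a, a protease of the ATG8 proteins encoded on the X chromosome, was not well above background on any array and has no test.

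The RNA came from cultured lung fibroblasts of Mmp19 knockout mice (KO, 3 cultures) and wild-type mice (WT, 3 cultures). Mmp19 encodes a secreted matrix metalloproteinase. Mice of both genotypes, labelled female and 11 weeks of age, had received 0.08 units of bleomycin, an agent that causes lung fibrosis, into the trachea and were killed on day 21, so no group was without bleomycin, and the isolated cells were kept for 72 hours in culture. Each culture was hybridised to 1 array, and the labels give neither the mouse strain, nor the knockout allele, nor how many animals made a culture.

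Autophagy encloses cytoplasm in a double membrane, the autophagosome, which fuses with the lysosome, where acid hydrolases break its contents down. Kinase and lipid kinase complexes start the membrane, conjugation enzymes attach ATG8 proteins to it, and cargo receptors bind both the ATG8 proteins and the cargo. TFEB, TFE3 and MITF are related transcription factors that activate many lysosomal and autophagy genes through a short promoter element, and in fibroblasts lysosomal proteases also degrade collagen that the cell has taken up.

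The form of the element used here is GTCACGTG, which holds the shorter E-box CACGTG, a sequence that reads the same on both strands. It was searched on both strands in RefSeq promoter windows of 300 bases, 250 before and 50 after each gene's start (build GRCm38.p6), which were held for 35 of the 42 genes. It was found in 7 of the 35 (20%), against 689 of 27025 genes with a window (2.55%), and the E-box was found in 28.57%, against 8.09%. The 7 genes were Atg3, Atg7, Atg14, Lamp1, Mcoln1, Ctsa and Ctsd. Parts of the windows are printed 5′ to 3′ on the gene's strand, with GTCACGTG or its reverse complement CACGTGAC in capitals, for 4 of these genes, from the autophagosome, the lysosome membrane and the enzymes, and for the lysosomal enzymes Naglu and Arsa, whose signals are given further on. A match describes these letters and is not evidence of binding. The element is known from lysosomal and autophagy genes, so its higher share among genes chosen by name is no finding about these cultures.
Atg3, chr16:45158717-45158756, + strand: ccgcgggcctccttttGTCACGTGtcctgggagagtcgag
Lamp1, chr8:13159117-13159156, + strand: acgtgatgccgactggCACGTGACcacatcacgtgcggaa
Mcoln1, chr8:3500430-3500469, + strand: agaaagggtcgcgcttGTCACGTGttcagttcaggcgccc
Ctsd, chr7:142387902-142387941, - strand: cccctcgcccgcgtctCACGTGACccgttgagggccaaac
Naglu, chr11:101070003-101070042, + strand: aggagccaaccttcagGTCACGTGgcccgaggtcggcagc
Arsa, chr15:89477425-89477458, - strand: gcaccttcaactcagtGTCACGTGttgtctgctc

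Signals are log2 intensities relative to the 75th percentile of their array, so 0 is the level of that percentile, and a change is the KO mean minus the WT mean on this scale. The share of spots well above their background was 43.1% to 52.5% on KO arrays and 44.6% to 54.5% on WT arrays, and no spot was saturated. Mmp19 itself was not well above background on any KO array and was on all 3 WT arrays, at least 6.31-fold lower in KO (limma, adjusted p = 0.0160, but 0.0901 without KO replicate 3 and 0.0774 without WT replicate 3). Xist, the RNA that coats the inactive X chromosome, cleared the background on all 3 KO arrays and on no WT array (adjusted p = 0.00323), and the Y-linked Eif2s3y had signals of 2.19, -1.77 and 0.67 on KO arrays, against 2.92, 4.18 and 3.62 on WT arrays (change -3.21 ± 0.94, adjusted p = 0.112). The Y-linked Ddx3y had a change of -2.47 ± 0.79 (adjusted p = 0.139). These signals go against the label female for WT. Both Y-linked genes were also well above background on all 6 arrays, so the label is uncertain for KO too. Sex and genotype therefore cannot be told apart. Mmp19 and Xist each entered the test only through the group where they were higher, so their p-values add no support of their own. WT replicate 2 stood apart from its group, correlating with the other WT arrays at 0.940 and 0.960 where those correlated at 0.984. Of 9 fibroblast markers, Col1a1 and Col1a2 rose (22.2%, against 3.3% of all genes), by 1.47 and 1.25. Neither passed the threshold without KO replicate 3 (limma, adjusted p = 0.134 and 0.193) or WT replicate 3 (0.114 and 0.139), among others. The summed linear signal of the 9 was 1346 to 1444 on KO arrays and 870.4 to 1135 on WT arrays. Fewer cells of a type and less RNA per cell cannot be told apart in such cultures.

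Across the 41 genes tested, 5 rose (12.2%, against 3.3% of all genes) and 1 fell (2.44%, against 1.49% of all genes) in KO cultures at an adjusted p under 0.05 over all probes. The genes that rose were Tfeb, Map1lc3b, Hexa, Ctsz and Ctsb, and the gene that fell was Atg4c. The median change was 0.44, where that of all genes tested was 0.08, and 36 of 41 genes had a positive change (87.8%, against 56.3% of all genes). In 22 genes every KO array lay above every WT array (53.7%, against 21.2% of all genes), and in 1 every KO array lay below (9.82% of all genes). Tfeb and Atg9a entered the test through the KO group alone, since only 2 of 3 WT arrays were well above background for each. Among the 39 genes measured on all 6 arrays 4 rose and 1 fell, where 2.59% of all such genes rose and 0.902% fell.

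**Figure D1:**
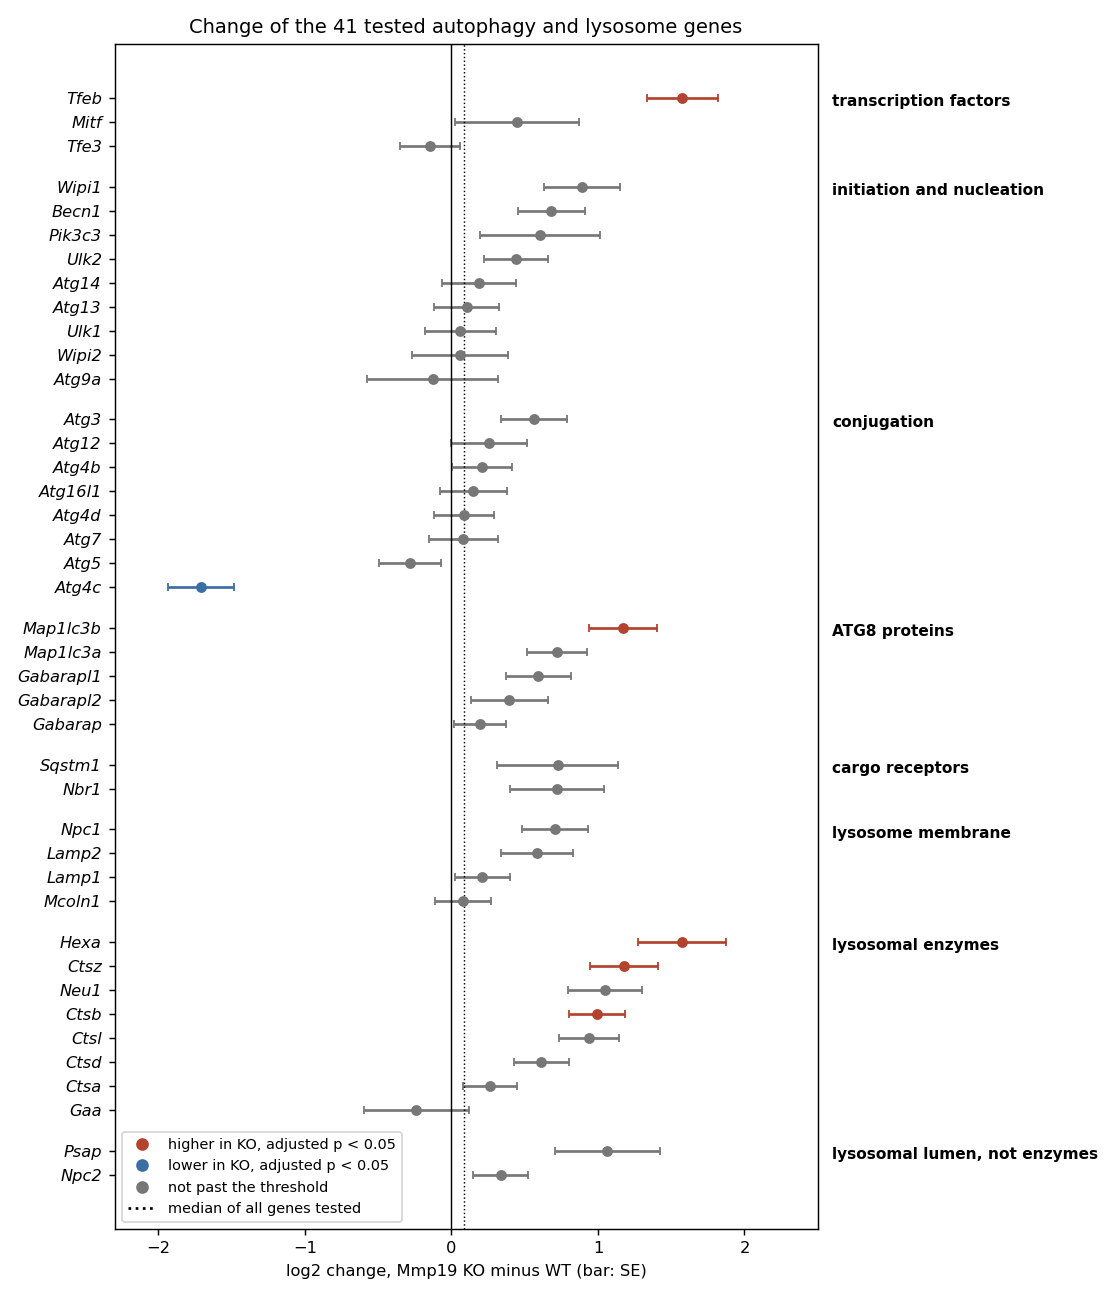
Log2 change, Mmp19 KO minus WT, of the 41 tested autophagy and lysosome genes, grouped by role, with the standard error of the limma fit (3 arrays per group). Tfeb, Map1lc3b, Hexa, Ctsz and Ctsb lie right of 0 in red, Atg4c lies left in blue, and the dotted line is the median of all genes tested, 0.08.

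Of the 3 transcription factors, Tfeb rose, but it entered the test through the KO group alone, so its p-value depends on that filter. With probes above background on all 6 arrays Tfeb was not tested, and of the other 2 none rose. The signal of Tfeb was -1.001, -0.98 and -1.25 on KO arrays, against -2.48, -3.05 and -2.42 on WT arrays. The groups did not overlap, and the mean was 2.98-fold higher in KO cultures (change 1.58 ± 0.24, SE, adjusted p = 0.0218). Within the 3 slides, each of which held the KO and the WT array of the same replicate number, the KO array was higher by 1.47, 2.08 and 1.18. The median within-slide difference of all genes tested was -0.008, 0.33 and -0.03, so within-slide differences on slide 2 include a general shift towards KO. The call was lost with slide as a block (adjusted p = 0.0720), and without any 1 array other than WT replicate 2 the value was 0.0542 to 0.101. With normexp background correction the change was 0.77 (adjusted p = 0.0499). Tfe3, X-linked, and Mitf did not pass the threshold. Tfe3 had 4.30, 4.53 and 4.21 on KO arrays, against 4.64, 4.31 and 4.53 on WT arrays (change -0.15 ± 0.20, adjusted p = 0.719). Mitf changed by 0.45 ± 0.42 (adjusted p = 0.586), with WT replicate 2 at 0.72 and all other arrays between 2.02 and 2.35. The second probes of Tfe3 and Mitf had changes of the opposite sign, 0.38 and -0.28, neither past the threshold.

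None of the 9 initiation and nucleation genes passed the threshold (limma), with a median change of 0.19 and 2 of 9 at an unadjusted p under 0.05, where 21.8% of all genes had one. The smallest p belonged to Wipi1, which binds the lipid that marks the forming membrane. Wipi1 had 2.71, 2.63 and 3.07 on KO arrays, against 1.98, 1.52 and 2.24 on WT arrays, so that the groups did not overlap (change 0.89 ± 0.26, adjusted p = 0.110). Its second probe had a change of 0.81. Becn1, a subunit of the lipid kinase complex, had 2.91, 3.23 and 3.35 on KO arrays, against 2.20, 2.57 and 2.66 on WT arrays, again without overlap (change 0.68 ± 0.23, adjusted p = 0.154). The difference for Becn1 was 0.70, 0.66 and 0.69 within the 3 slides, where all genes tested had a median of -0.008, 0.33 and -0.03. Ulk2, a kinase that starts the process, was the other gene of this group without overlap (change 0.44 ± 0.22, adjusted p = 0.301). Every KO array thus lay above every WT array in 33.3% of the 9, against 21.2% of all genes. Ulk1, the relative of Ulk2, had 4.32, 4.31 and 4.09 on KO arrays, against 4.44, 3.77 and 4.32 on WT arrays. The changes of Atg13, the partner of the ULK kinases, of Atg14 and Pik3c3, subunits of the lipid kinase complex, of the lipid-binding Wipi2 and of the membrane protein Atg9a lay between -0.13 and 0.60, and their groups overlapped. The second probe of Wipi2 had a change of -0.58, where the brighter had 0.06.

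Of the 8 conjugation genes tested, 1 fell (12.5%, against 1.49% of all genes) and none rose (3.3% of all genes), with a median change of 0.12. The gene that fell was Atg4c, one of the proteases that trim ATG8 proteins before conjugation and release them from membranes. Atg4c had -1.75, -1.44 and -1.15 on KO arrays, against 0.24, 0.22 and 0.33 on WT arrays. The groups did not overlap, and the mean was 3.27-fold lower in KO cultures (change -1.71 ± 0.22, adjusted p = 0.0143). The second probe had -3.34, -3.53 and -3.61 on KO arrays, of which 1 was well above background, against -0.20, -0.69 and -0.50 on WT arrays. It entered the test through the WT group alone, so no test of it is given. Blocking on slide kept the call of Atg4c (adjusted p = 0.0490), where 0.625% of all genes fell, with within-slide differences of -1.99, -1.66 and -1.48, but not without KO replicate 3 (0.0568) or without WT replicate 3 (0.0782). The related proteases Atg4b and Atg4d had changes of 0.21 and 0.09 with overlapping groups. Atg3, the enzyme that transfers ATG8 proteins to lipid and whose window is printed above, had 4.02, 3.80 and 3.54 on KO arrays, against 2.99, 3.43 and 3.25 on WT arrays (change 0.56 ± 0.23, adjusted p = 0.218). Its groups did not overlap, and it was the 1 conjugation gene with every KO array above every WT array (12.5% of those tested, against 21.2% of all genes). The activating enzyme Atg7 and the members of the ATG16L1 complex, Atg5, Atg12 and Atg16l1, had changes of 0.08, -0.28, 0.26 and 0.15, all with overlapping groups. The second probe of Atg12 had a change of -0.27.

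All 5 ATG8 genes had a positive change, where 56.3% of all genes had one, with a median of 0.59. Of the 5, 1 rose (20%, against 3.3% of all genes). ATG8 proteins are attached to the autophagosome membrane, and Map1lc3b encodes the member most used as its marker. Map1lc3b had 5.36, 5.54 and 5.48 on KO arrays, against 4.43, 3.90 and 4.54 on WT arrays. The groups did not overlap, and the mean was 2.25-fold higher in KO cultures (change 1.17 ± 0.23, adjusted p = 0.0428). Within slides the KO array was higher by 0.94, 1.64 and 0.94. The call was lost with slide as a block (adjusted p = 0.0994) and without any 1 array other than WT replicate 2 (0.0930 to 0.188). Map1lc3a had 2.83, 2.76 and 2.75 on KO arrays, against 2.04, 1.84 and 2.31 on WT arrays (change 0.72 ± 0.20, adjusted p = 0.105). Its groups did not overlap, nor did those of Gabarapl1 (change 0.59 ± 0.22, adjusted p = 0.191) and Gabarap (0.19 ± 0.18, adjusted p = 0.575), whereas those of Gabarapl2 did. The second, dimmer probe of Gabarap had a change of 0.98 ± 0.24 (adjusted p = 0.0763).

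Neither cargo receptor passed the threshold or had an unadjusted p under 0.05 (limma). Sqstm1, which delivers ubiquitin-tagged cargo, had 3.94, 2.57 and 3.44 on KO arrays, against 2.85, 2.01 and 2.91 on WT arrays. Its groups overlapped, since KO replicate 2 lay below WT replicates 1 and 3 (change 0.73 ± 0.41, adjusted p = 0.365). Nbr1, a receptor of similar function, had 0.93, 1.15 and 1.60 on KO arrays, against 0.76, -0.07 and 0.83 on WT arrays, without overlap (change 0.72 ± 0.32, adjusted p = 0.256).

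Of the 8 lysosomal enzymes 3 rose (37.5%, against 3.3% of all genes) and none fell (1.49% of all genes). In 7 of 8 every KO array lay above every WT array (87.5%, against 21.2% of all genes). Hexa, a subunit of a hexosaminidase that degrades gangliosides, had 6.58, 5.76 and 6.15 on KO arrays, against 4.86, 4.18 and 4.73 on WT arrays. The groups did not overlap, and the mean was 2.98-fold higher in KO cultures (change 1.57 ± 0.30, adjusted p = 0.0378). Ctsz, a cathepsin that removes single residues from the carboxyl end, had 6.82, 6.81 and 6.79 on KO arrays, against 5.70, 5.27 and 5.93 on WT arrays. The KO arrays were close together and all above WT (2.26-fold, change 1.18 ± 0.23, adjusted p = 0.0401). Ctsb, a cysteine cathepsin, had 7.43, 7.68 and 7.35 on KO arrays, against 6.45, 6.57 and 6.46 on WT arrays, again without overlap (1.99-fold, change 0.99 ± 0.19, adjusted p = 0.0403).

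Blocking on slide kept the call of Hexa (adjusted p = 0.0490, where 1.17% of all genes rose), and Ctsb (0.0897) and Ctsz (0.0901) lost theirs, although the KO array was higher on each of the 3 slides in all 3 genes. Hexa differed by 1.72, 1.58 and 1.42 within slides, Ctsz by 1.12, 1.54 and 0.87, and Ctsb by 0.98, 1.11 and 0.89. Without any 1 array other than WT replicate 2 the adjusted p was 0.0544 to 0.160 for Hexa, 0.0916 to 0.177 for Ctsz and 0.0924 to 0.157 for Ctsb. Ctsb was also past the threshold in neither quantile normalization (adjusted p = 0.0614) nor normexp background correction (0.0538).

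**Figure D2:**
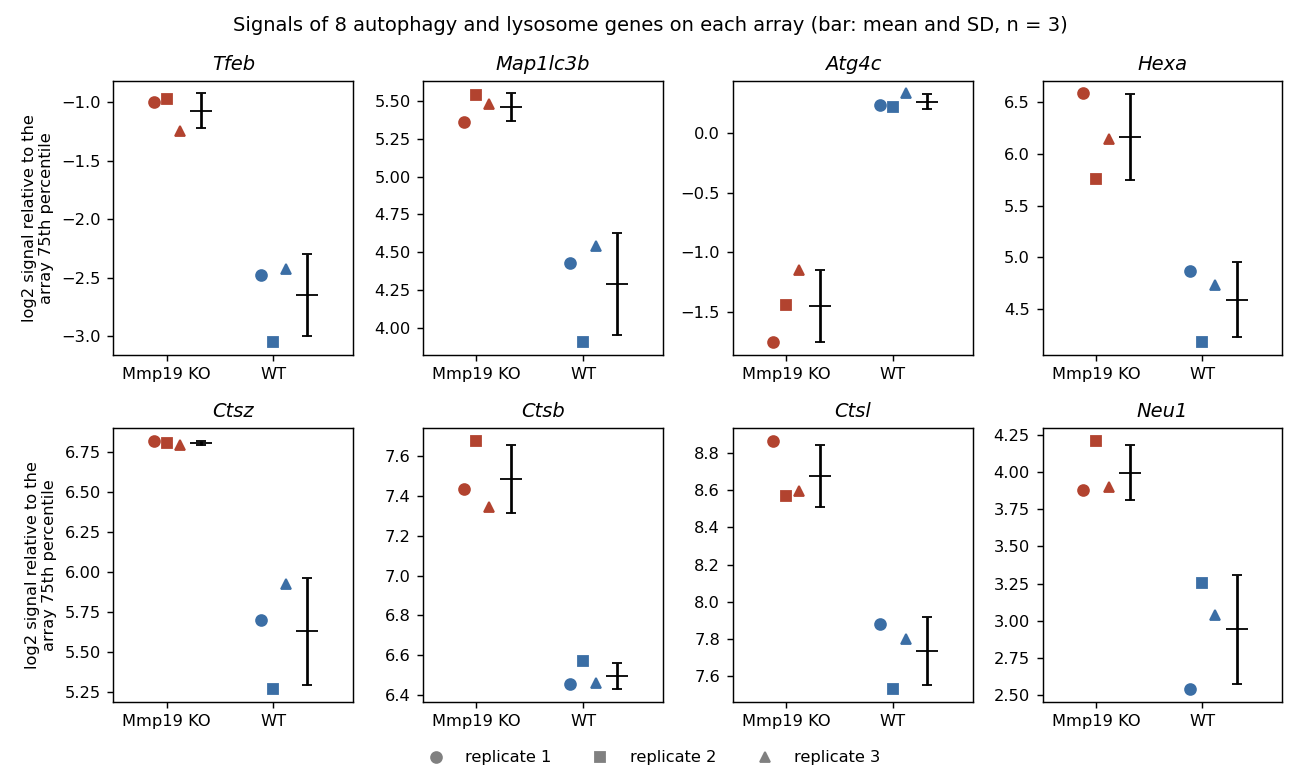
Log2 signal relative to the 75th percentile of the array for the 6 genes past the threshold and for Ctsl and Neu1, with KO arrays left and WT arrays right, the replicate number by symbol, and the group mean and SD (n = 3). In all 8 panels the groups do not overlap, Atg4c is lower in KO, and WT replicate 2 is the lowest WT array for Tfeb, Map1lc3b, Atg4c, Hexa, Ctsz and Ctsl.

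The other 5 enzymes did not pass the threshold. Ctsl, a cysteine cathepsin, had 8.87, 8.57 and 8.60 on KO arrays, against 7.88, 7.53 and 7.80 on WT arrays (change 0.94 ± 0.21, adjusted p = 0.0561). Neu1, the lysosomal sialidase, had 3.88, 4.21 and 3.90 on KO arrays, against 2.54, 3.25 and 3.04 on WT arrays (change 1.05 ± 0.25, adjusted p = 0.0703). Neither gene's groups overlapped. Ctsd, an aspartic protease, had 7.46, 7.45 and 7.38 on KO arrays, against 6.66, 6.89 and 6.91 on WT arrays, also without overlap (change 0.61 ± 0.19, adjusted p = 0.125), and its dimmer probe had a change of 1.02. Ctsa, a carboxypeptidase that protects Neu1, differed between its probes. The brighter had 7.58, 7.83 and 7.70 on KO arrays, against 7.43, 7.47 and 7.43 on WT arrays (change 0.26 ± 0.18, adjusted p = 0.461). The dimmer probe of Ctsa had 0.34, -0.16 and -0.23 on KO arrays, against -1.34, -1.44 and -1.31 on WT arrays, and passed the threshold (change 1.35 ± 0.22, adjusted p = 0.0266). Gaa, which degrades glycogen, had overlapping groups and changes of -0.24 on its brighter probe and 1.01 on its dimmer one, neither past the threshold. Its brighter probe had 5.999, 6.09 and 5.81 on KO arrays, against 6.67, 5.41 and 6.54 on WT arrays.

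Psap and Npc2, proteins of the lumen that present lipids to enzymes or carry cholesterol, had every KO array above every WT array and did not pass the threshold. Psap had 5.44, 5.13 and 5.20 on KO arrays, against 4.58, 3.40 and 4.60 on WT arrays (change 1.06 ± 0.36, adjusted p = 0.154), and Npc2 changed by 0.33 ± 0.18 (adjusted p = 0.351). None of the 4 membrane genes passed either (limma), with a median change of 0.40. An unadjusted p under 0.05 was found in 2 of 4, against 21.8% of all genes. Npc1, which exports cholesterol from the lysosome, had 0.27, 0.33 and 0.02 on KO arrays, against -0.54, -0.75 and -0.20 on WT arrays, without overlap (change 0.71 ± 0.23, adjusted p = 0.138). Lamp2, X-linked and one of the main glycoproteins of the membrane, had 5.62, 6.03 and 5.93 on KO arrays, against 5.55, 4.91 and 5.36 on WT arrays (change 0.59 ± 0.25, adjusted p = 0.236). Lamp1, its relative, had a change of 0.21 ± 0.18 without overlap, and the calcium channel gene Mcoln1 had 0.08 ± 0.19 with overlap.

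Set beside each other, the 8 lysosomal enzymes had a median change of 0.97 and the 24 autophagosome genes tested had one of 0.23, against 0.08 for all genes tested. The autophagosome median was lower than the enzyme median by a difference of -0.73. In 9 of 24 autophagosome genes every KO array lay above every WT array (37.5%), against 87.5% of the enzymes and 21.2% of all genes. With each gene set to its mean over the 6 arrays, the enzyme median was 0.43, 0.37 and 0.37 on KO arrays, against -0.49, -0.55 and -0.35 on WT arrays. The autophagosome median was 0.10, 0.16 and 0.19 on KO arrays, against -0.11, -0.28 and -0.04 on WT arrays. For both lists every KO array lay above every WT array, with a narrower gap for the autophagosome genes. The genes were named with earlier results known, so these values are a description with no test.

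**Figure D3:**
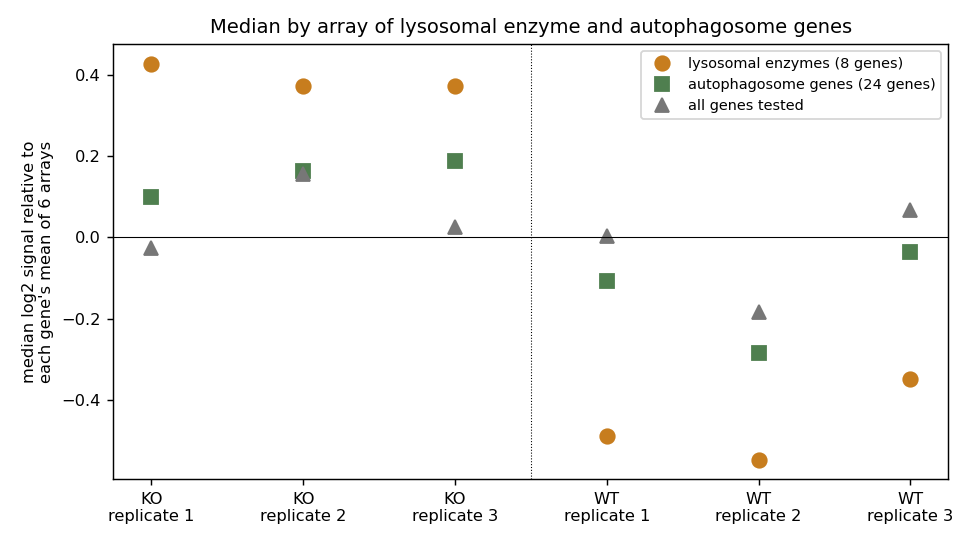
Median log2 signal on each array, relative to each gene's mean over the 6 arrays, of the 8 lysosomal enzymes, the 24 autophagosome genes tested and all genes tested, with KO arrays left of the dotted line and WT arrays right of it. The enzyme medians are 0.37 to 0.43 on KO arrays and -0.55 to -0.35 on WT arrays, farther apart than those of the autophagosome genes.

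Another 36 lysosomal enzymes were listed beside the 8. Of the 34 tested 9 rose (26.5%, against 3.3% of all genes) and none fell (1.49% of all genes). A positive change was found in 29 (85.3%, against 56.3% of all genes) and a negative one in 5. The median change was 0.80. Every KO array lay above every WT array in 21 (61.8%, against 21.2% of all genes). In 1 every KO array lay below (9.82% of all genes), the galactosidase gene Gla (change -0.56, limma, adjusted p = 0.263). The 3 with the largest change among those past the threshold were Naglu, Acp5 and Arsa. Naglu, which degrades heparan sulfate, had 3.87, 3.96 and 3.68 on KO arrays, against 2.34, 1.01 and 2.16 on WT arrays, without overlap (change 1.998 ± 0.37, adjusted p = 0.0346). Acp5, tartrate-resistant acid phosphatase, had 3.28, 2.87 and 2.82 on KO arrays, against 1.45, 1.19 and 1.22 on WT arrays (change 1.702 ± 0.22, adjusted p = 0.0134). Arsa, the sulfatase that degrades sulfatide, had 4.11, 4.83 and 4.27 on KO arrays, against 2.12, 2.80 and 3.25 on WT arrays, also without overlap (change 1.68 ± 0.35, adjusted p = 0.0466). Another 5, named after their values were seen, were the proteases Ctsc, Ctsf and Tpp1, the glycosidase Manba and the phospholipase Pla2g15, with changes between 1.04 and 1.45. Of the 9, Acp5 kept its call when slide was a block (adjusted p = 0.0446). Acp5 was not past it without KO replicate 3 (0.0751) or WT replicate 3 (0.0779), and leaving out any 1 array ended the call of Arsa (0.0591 to 0.171). Naglu was not past it without any 1 array other than WT replicate 2 (0.0547 to 0.137). The block ended the calls of Ctsc, Ctsf, Tpp1, Manba and Pla2g15 (0.0519 to 0.0939), and none of these 5 was past the threshold without KO replicate 3 or without WT replicate 3 (0.0672 to 0.215).

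Over both lists, 12 of 42 tested enzymes rose (28.6%, against 3.3% of all genes) and none fell (1.49% of all genes). The median change was 0.81. Of the 10 that rose and had a promoter window 2 held GTCACGTG, the Naglu and Arsa windows printed above (20%), and of the 23 that did not pass and had a window 6 held it (26.09%). None of the 7 autophagy and lysosome genes with the element passed the threshold on its brightest probe. The dimmer probe of Ctsa did.

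Among the remaining genes of the pathway none passed the threshold. The lists held 16 subunits of the V-ATPase, the proton pump that acidifies the lysosome, 19 other autophagosome genes, 11 other cargo receptors, 13 other membrane and sorting genes and 16 genes that control mTORC1 and TFEB. V-ATPase genes had a median change of 0.47, and 15 of 16 had a positive one (93.8%, against 56.3% of all genes). The smallest p in that list was that of Atp6v1e1, with 5.34, 5.51 and 5.66 on KO arrays, against 4.22, 4.40 and 4.79 on WT arrays (change 1.03 ± 0.23, adjusted p = 0.0564). The other autophagosome genes had a median change of 0.26, with the smallest p for the lipid-binding Wdr45b (change 1.69 ± 0.40, adjusted p = 0.0677), and the other cargo receptors one of 0.50, with the smallest p for Tollip. Membrane and sorting genes had a median of -0.01, where the sorting receptor Sort1 had a change of 0.93 ± 0.22 (adjusted p = 0.0639). The mTORC1 and TFEB control genes had a median of 0.20, with the smallest p for Lamtor3, a subunit of the complex that anchors mTORC1 to the lysosome (change 0.57 ± 0.21, adjusted p = 0.176). An unadjusted p under 0.05 was found in 7 V-ATPase genes, 5 other autophagosome genes, 2 other cargo receptors, 3 membrane and sorting genes and 3 control genes, and in 21.8% of all genes tested.

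**Figure D4:**
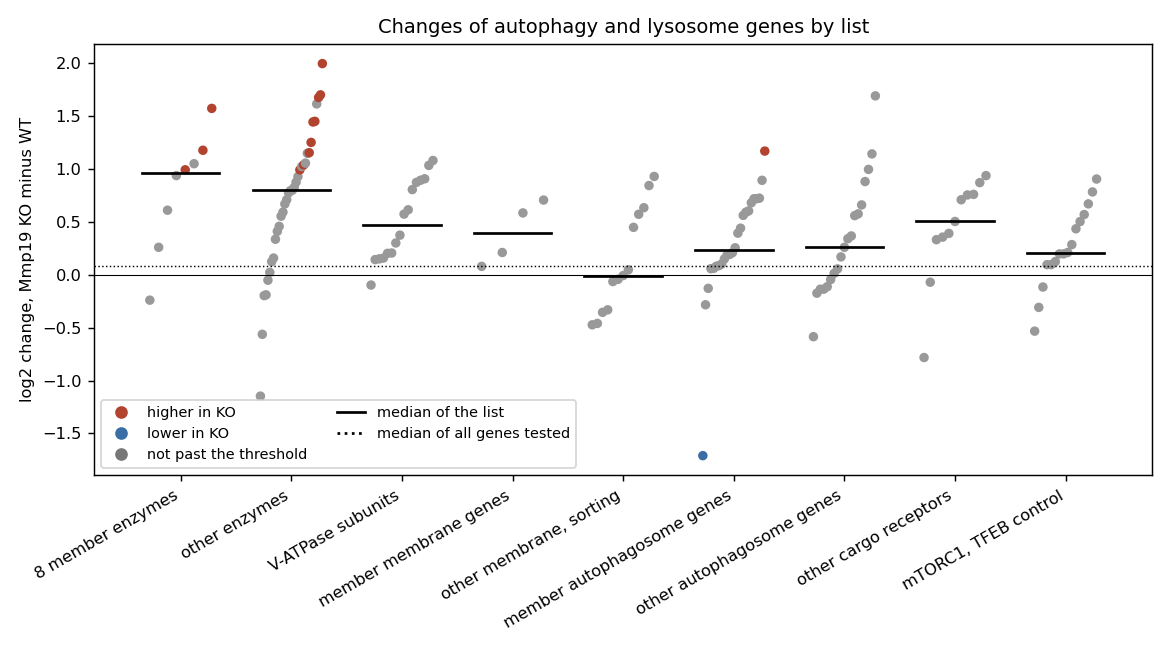
Log2 change, Mmp19 KO minus WT, of each tested gene (points, sorted within a list) and the median (bar) of the lysosomal lists, left, and the autophagosome, receptor and control lists, right. Genes past the threshold lie in both enzyme lists and in the list of 24 autophagosome genes tested, and the enzyme medians, 0.97 and 0.80, stand above those of the other lists.

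Markers of other cell types were read beside these results. Macrophages are rich in lysosomal enzymes, and of 7 tested macrophage markers none passed the threshold (limma). Of the 7, 2 had an unadjusted p under 0.05, where 21.8% of all genes had one. The summed linear signal of the 12 macrophage markers with a probe was 48.9 to 111 on KO arrays and 59.3 to 72.3 on WT arrays, so the groups overlapped. Itgam made up 72.7% to 85.3% of that sum, and without it the sum was 13.4 to 17.5 on KO arrays and 10.6 to 11.5 on WT arrays, where the groups did not overlap. Lyz2, which entered the test through the KO group alone, and Fcer1g had every KO array above every WT array (changes 1.02 and 0.72, adjusted p = 0.135 and 0.140). They were 28.6% of the 7 tested, against 21.2% of all genes. With array weights the median change of the macrophage markers was 0.52, against 0.20 without them, and 1 rose, as also without WT replicate 2. Of all 12471 genes tested, 1471 rose with array weights and 505 without WT replicate 2. The part of macrophage RNA in the changes of the lysosomal genes was not tested. Mrc1 was not well above background on any array, and Adgre1, Ptprc, Tyrobp and C1qa were so on only some arrays of each group, with no value of Ptprc on WT replicate 2. Of 7 mesothelial markers, all tested, 5 rose (71.4%, against 3.3% of all genes), namely Msln, Upk3b, Wt1, Lrrn4 and Bnc1. Of these, Upk3b, Lrrn4 and Bnc1 entered the test through the KO group alone, with 2, 2 and 1 of 3 WT arrays well above background. With probes above background on all 6 arrays, 3 of the 7 were tested and 2 rose, where 2.59% of all such genes rose. The summed signal of the 7 was 38.0 to 101 on KO arrays and 2.03 to 16.4 on WT arrays. Bnc1 kept its call when any 1 array was left out, whereas the other 4 lost theirs without KO replicate 2, KO replicate 3 or WT replicate 3. As Upk3b, Lrrn4 and Bnc1 entered the test through the KO group alone, their calls add no support of their own. Mesothelial cells line the lung surface, and their part in the changes of the lysosomal genes was not tested. No lung epithelial or endothelial marker passed the threshold (limma). An unadjusted p under 0.05 was found in 1 of 7 epithelial and 0 of 5 endothelial markers tested, against 21.8% of all genes. The epithelial keratin gene Krt18 had every KO array above every WT array (change 2.55, adjusted p = 0.0940). It stood for 14.3% of the epithelial markers tested, against 21.2% of all genes. With slide as a block, with array weights and without KO replicate 1, 1 epithelial marker rose, where 146, 1471 and 188 of 12471 genes did. Of 7 smooth muscle and pericyte markers Myh11 and Des rose (33.3% of those tested, against 3.3% of all genes), both entering the test through the KO group alone. Of the 4 such markers above background on all 6 arrays 0 rose (2.59% of all such genes), with a median change of -0.21 where the 6 tested had 0.82. Without KO replicate 3 or without WT replicate 3 0 rose, but of all 12471 genes only 47 and 52 did. Cd79b of the 5 lymphocyte markers, 2 of them tested, entered through the WT group alone and fell (1.49% of all genes). No lymphocyte marker fell with slide as a block, with normexp, or without WT replicate 3 or any 1 KO array. Of all 12471 genes, 78 fell with slide as a block, 162 with normexp and 18 without WT replicate 3. Without 1 KO array 22 to 107 fell.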

How the data were processed

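Total RNA of 6 cultures, 3 KO and 3 WT, (0.5 µg each) was Cy3-labelled and read on Agilent arrays of 1 colour, per the labels' protocols. The deposited scanner tables hold a background-subtracted processed intensity per spot from Agilent Feature Extraction 10.7.3.1, per the file headers, where the submitters' processing notes name version 9.1. A second table that the authors deposited holds log2 values of 35844 probes. Its columns correlated at 0.996 and above with the log2 signal of their own array and at most at 0.989 with another, and had medians of 5.51 to 5.76; the sources used here do not say how it was centred, and it was an alternative.

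Control spots and outlier flags were left out, repeated spots were averaged (55681 probes, of which 259 lacked a value on some array), and the 75th percentile of each array's log2 signal was subtracted. Tested were the 24216 probes (43.5%) that cleared the background on every array of 1 group or of both, with limma 3.58.1 in R 4.3.3 (lmFit, eBayes, two-sided, Benjamini-Hochberg over all probes tested, threshold 0.05). Accessions named 47.4% of probes through a RefSeq table of GRCm38.p6, used for names, chromosomes and promoter windows alone, since the array design is annotated on mm9, per the file headers. Where a gene had several tested probes, the brightest by its mean stands for it. At least-fold values set the bright group's mean against, per array of the dim group, whichever is higher, the signal of the dim probe or the lowest signal well above background. The number of arrays limits the precision: an exact permutation test of 3 against 3 cannot give a p below 0.1. The series text speaks of independent experiments, and p-values measure the spread between these cultures. The analysis was tested on simulated data.

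The genes and lists were chosen with earlier results of these data known. Named are the targeted gene, every one of the 42 genes (in full those past the threshold and, per role, the 2 with the smallest p), of each other pathway list the 3 largest changes past the threshold or, with none past it, the smallest p, and 3 genes that check the sex label. Others were named after their values were seen: Ulk1, Tfe3, Ctsl, Neu1, Ctsd, Ctsa and Gaa in full, and the marker genes. An item of the lists is not reported here.

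Each slide held the KO and the WT array of 1 replicate number, so slide and replicate block are 1 fit. On the 3 slides, KO and WT deviations from their group mean had correlations of 0.0959, -0.0204 and 0.210, and between slides -0.287 to 0.197. These few values cannot decide whether the arrays are paired. The main fit did not treat them as pairs. Alternatives were normexp (offset 50, on median signals, as no mean signals were used), quantile and cyclic loess normalization, scaling to probes above background on all arrays, other filters, the authors' log2 values, slide as a block, a trended robust prior, array weights (gene by gene), the mean over a gene's probes and leaving out each array.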

Additional observations from a re-analysis of the deposited data

How the results depend on the processing

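Probes past the threshold numbered 1124 (62.0% higher in KO) and autophagy and lysosome genes 6. With probes above background on all 6 arrays they were 650 and 5, with no filter on dim probes 113 and 0, and with array weights 5073 and 13 (12 higher, 1 lower). Of all 12471 genes, 1471 rose and 1242 fell with array weights. With the replicate block, which is the slide block, 385 probes and 2 of the 42 genes passed, Hexa and Atg4c, and among the other lysosomal enzymes 9 became 1. In that fit 1.17% of all genes rose and 0.625% fell. Leaving out 1 array gave 107 to 1716 probes, 0 to 7 of the 42 genes and 0 to 8 of the other enzymes. Without WT replicate 2 there were 1716 probes and 7 genes. Of all 12471 genes, 47 to 505 rose and 18 to 477 fell in the fits without 1 array. The other enzymes that rose were 18 of 34 with array weights and 0 of 36 with no filter, where 1471 of 12471 and 56 of 20017 genes rose. Scaling to the 75th percentile of probes above background on all arrays shifted the median of all genes to -0.03, where it was 0.08, with 51.9% of 1169 calls higher. The autophagosome median minus the enzyme median was -0.73 over all arrays and -0.74 to -0.63 without 1 array, with -0.63 where KO replicate 2 was left out. None of the 6 genes changed sign in any alternative, and 13 genes not past the threshold on their brightest probe did (limma, adjusted p 0.461 to 0.941). Among the 13 was Ctsa, whose dimmer probe passed the threshold. With that 75th percentile, Ulk1, Atg13, Wipi2, Atg4d, Atg7 and Mcoln1 were -0.056, -0.014, -0.059, -0.030, -0.036 and -0.037, and in the authors' table -0.065, -0.029, -0.076, -0.047, -0.050 and -0.043. With cyclic loess, Ulk1, Wipi2, Atg4d, Atg7 and Mcoln1 were -0.027, -0.029, -0.0032, -0.011 and -0.0033. With quantile normalization, Ulk1, Atg13, Atg7 and Mcoln1 were -0.024, -0.0080, -0.027 and -0.046, and with array weights -0.16, -0.030, -0.064 and -0.016. With normexp, Ulk1, Atg14, Atg9a and Ctsa were -0.0095, -0.028, 0.031 and -0.090. With the median of probes above background on all arrays, Ulk1 and Wipi2 were -0.0089 and -0.012. With the mean over a gene's probes, Tfe3, Wipi2, Atg12 and Gaa were 0.11, -0.26, -0.0056 and 0.39. Over the fits without 1 array, the change ran over -0.63 to 0.16 for Atg9a, -0.26 to 0.25 for Wipi2, -0.14 to 0.19 for Ulk1, -0.11 to 0.19 for Atg7, -0.054 to 0.18 for Atg13, -0.043 to 0.34 for Atg14, -0.041 to 0.77 for Mitf and -0.032 to 0.16 for Atg4d. The cause of these differences was not tested. Dim probes such as those of Tfeb and Atg9a are limited by signal over background.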
